A study of Mus musculus with 6 samples.

Results

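The 10 genes described here belong to the beta-catenin and TCF branch of Wnt signalling: *Ctnnb1*, *Apc*, *Axin2*, *Nkd1*, *Znrf3*, *Tcf7*, *Tcf7l1*, *Tcf7l2*, *Dkk1* and *Wnt5a*. They were taken by gene name from a total of 20788 genes listed in at least 1 of 6 RNA-seq libraries. These came from B16 cells, a mouse melanoma line of C57BL/6 origin. Subclones with high tyrosinase activity (Tyr-H cells, 3 libraries) were compared with subclones with low tyrosinase activity (Tyr-L cells, 3 libraries), with no treatment in either group, and both were grown in low-glucose medium with serum. Subclones were picked from colonies grown at low density. It is not given whether a group is a single clone or several, nor whether its 3 libraries came from separate cultures, so differences between the groups cannot be told apart from differences between clones and p-values cover only the spread between these libraries.

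In the absence of a Wnt ligand, a cytoplasmic complex built on APC and AXIN proteins marks beta-catenin for destruction. When a ligand engages Frizzled and LRP receptors, the complex is inhibited, beta-catenin enters the nucleus and TCF factors use it to activate their targets. Several targets encode inhibitors of the same pathway, among them *Axin2*, *Nkd1* and *Znrf3*, so that their transcripts are widely read as a measure of pathway output. In the melanocyte lineage the pathway takes part in the specification of pigment cells from the neural crest.

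All 7 members that were expressed above trace level had lower levels in Tyr-H cells, while *Wnt5a*, *Dkk1* and *Nkd1* were at or near 0 in both groups. The decrease was greatest for *Tcf7l1* and *Axin2*, which fell to 45.1% and 44.5% of their mean FPKM (fragments per kilobase of transcript per 1000000 mapped fragments) in Tyr-L cells, and smallest for *Ctnnb1*, at 82.5%. Differences were tested with limma on log2(FPKM + 0.1) in the 14336 genes whose mean over the 6 libraries reached 0.1 FPKM. A call needed both an adjusted p no greater than 0.05 and a log2 fold change of 1 or more in size. Of the 7 members tested, 2 were called lower in Tyr-H cells and 0 higher. The number called lower was 0 with 1 FPKM added in place of 0.1, with quantile normalization and with median ratio scaling. Among all tested genes 5.78% were called lower and 2.96% higher. On the adjusted p alone all 7 members were lower, against 39.9% of all tested genes, and 17.9% of all tested genes were higher. Of these members, *Tcf7l2* did not pass in 11 of 17 alternative fits. After median ratio scaling 6 of the 7 were lower on the adjusted p, against 27.0% of all tested genes. The members were chosen with earlier results of these data known, so these shares do not test for an excess. The groups did not overlap in 6 of the 7, with each Tyr-H library under each Tyr-L library, which held for 43.8% of all tested genes. The median log2 fold change was -0.67 over the 7 members and -0.15 over all tested genes. Scaling by median ratios gave -0.52 over the members and -0.01 over all tested genes. All 7 members lay below -0.15. For single values, exact permutation of the 6 libraries was used, for which 0.1 is the smallest p possible here.

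**Figure D1:**
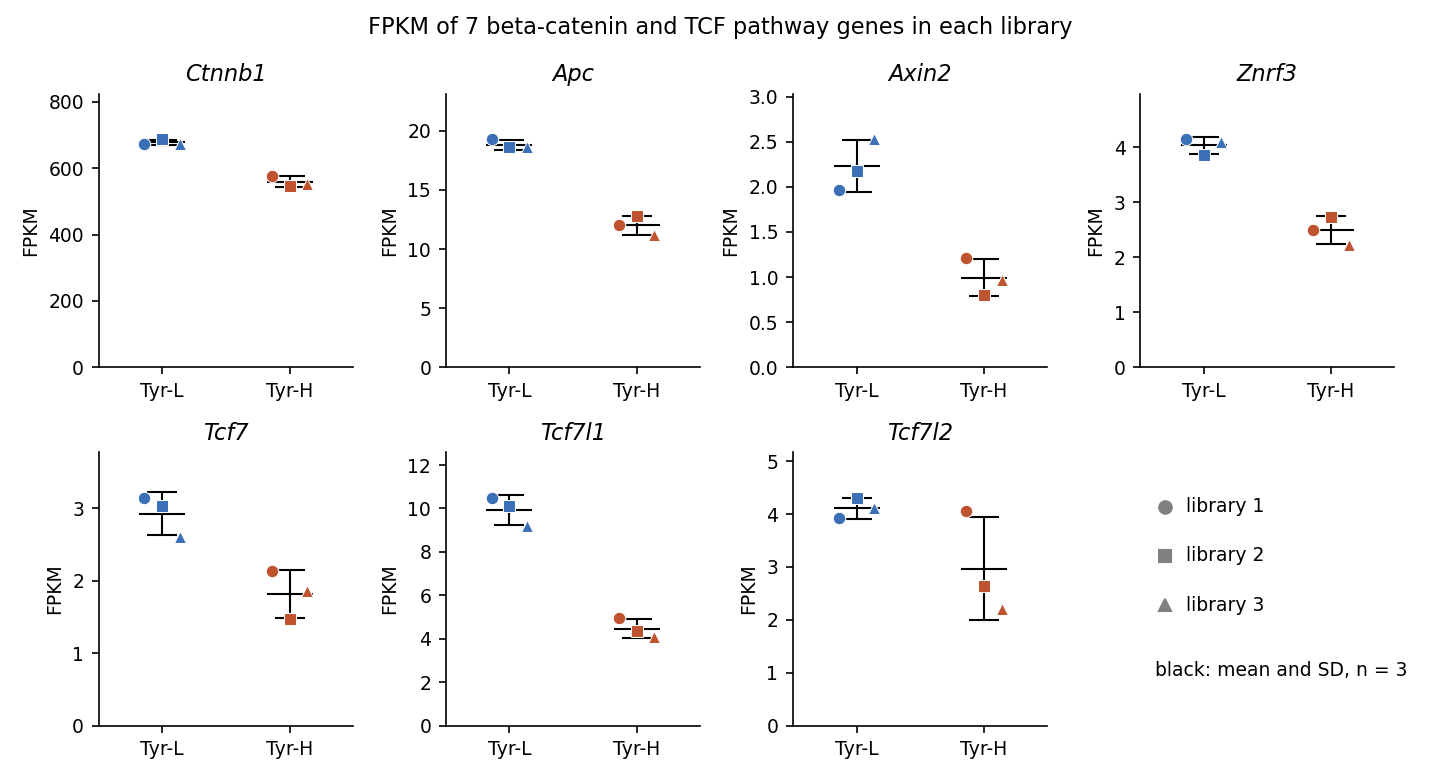
Expression of the 7 tested members in each library, in FPKM on axes that start at 0, with Tyr-L libraries in blue and Tyr-H libraries in orange and the mean and SD of 3 libraries in black. The groups are separate in every panel except *Tcf7l2*, where Tyr-H library 1 (4.05 FPKM) lies among the Tyr-L libraries.

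The labels and the cell type were checked first. *Tyr*, which encodes tyrosinase, was at 10.7, 9.52 and 9.80 FPKM across Tyr-L libraries 1 to 3, compared with 23.8, 20.6 and 19.7 FPKM across Tyr-H libraries 1 to 3, as the labels say. All 6 melanocytic markers (*Mitf*, *Sox10*, *Pmel*, *Mlana*, *Dct* and *Tyrp1*) were expressed, with a summed level of 7333 to 7649 FPKM over the Tyr-L libraries and 5417 to 5934 FPKM over the Tyr-H libraries. All 6 were lower in Tyr-H cells on the adjusted p, and *Mitf*, the master regulator of the melanocyte lineage, was the only one of them called (log2 fold change -1.85, adjusted p = 1e-07). Whether this has a part in the differences described here was not tested. The summed level of 6 fibroblast markers was 0.959 to 1.19 FPKM in any library, and 6 leukocyte, 3 endothelial and 3 epithelial markers each summed to at most 0.0540 FPKM. The Tyr-L libraries listed 17211 to 17413 genes and the Tyr-H libraries 16813 to 16949. The files give no read counts, and from the most frequent low value times transcript length the depth was estimated at 18900000 to 21900000 fragments per library, with both groups inside this range. Since these are bulk samples, fewer cells that express a gene and less RNA per cell cannot be told apart.

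*Ctnnb1* encodes beta-catenin, the coactivator through which the pathway acts and also a component of cell-cell junctions. It was by far the most abundant member, above 99.3% of all tested genes in mean FPKM. Its level was 673, 688 and 674 FPKM across Tyr-L libraries 1 to 3 and 577, 548 and 554 FPKM across Tyr-H libraries 1 to 3. The groups did not overlap, and the difference was small but exceeded the spread between libraries (SD over 3 libraries of 8.15 FPKM in Tyr-L cells, 15.3 FPKM in Tyr-H cells). On the log2 scale it changed by -0.28 ± 0.03 (± standard error, SE, 95% interval -0.35 to -0.20, adjusted p = 0.0001). Relative to the median of all tested genes it was -0.12. Median ratio scaling also gave -0.12 (adjusted p = 0.019), and a correction for GC content and transcript length, chosen after seeing the data, gave -0.17 (adjusted p = 0.0016). Rescaling each library to the same total gave -0.37 (adjusted p = 1.4e-05) and quantile normalization -0.40 (adjusted p = 6e-05). The gene lies on the plus strand of chromosome 9 from 120929216 to 120960507 (GRCm38), and its exons overlap those of *Ulk4* on the opposite strand, which averaged 17.7 FPKM over the Tyr-L libraries and 15.8 FPKM over the Tyr-H libraries. Strand-specific counting is not stated, so reads of overlapping genes could not be told apart.

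*Apc* and *Axin2* encode scaffolds of the destruction complex. *Apc* was at 19.3, 18.6 and 18.6 FPKM across Tyr-L libraries 1 to 3, compared with 12.0, 12.8 and 11.2 FPKM across Tyr-H libraries 1 to 3. Every Tyr-H library was lower than every Tyr-L library, by much more than the spread within a group. The log2 fold change was -0.64 ± 0.06 (± SE, adjusted p = 1.4e-05), short of the fold-change threshold. *Apc* (chromosome 18, 34220924 to 34322552) has the longest transcript of the members, 12811 nt with a GC content of 44.3%. Over 4 equal bins of all tested genes, the median log2 fold change ran from -0.07 for the shortest transcripts to -0.26 for the longest, and from -0.26 for the lowest GC content to -0.05 for the highest. After the same correction for both properties, the log2 fold change of *Apc* was -0.21 (adjusted p = 0.0035), while that of *Axin2* was -1.04.

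*Axin2* (chromosome 11, 108920349 to 108950783, plus strand) is itself a direct target of beta-catenin and TCF and acts as a feedback inhibitor. Its level was 1.96, 2.18 and 2.53 FPKM across Tyr-L libraries 1 to 3 and 1.21, 0.799 and 0.965 FPKM across Tyr-H libraries 1 to 3. The highest Tyr-H library was well under the lowest Tyr-L library, though the libraries of each group were more scattered than for *Apc*, with coefficients of variation of 13.0% and 20.8%. *Axin2* was called lower in Tyr-H cells, at a log2 fold change of -1.10 ± 0.17 (± SE, 95% interval -1.49 to -0.72, adjusted p = 0.00046). The call rested on the fold-change threshold: without Tyr-H replicate 2 the log2 fold change was -0.97, after median ratio scaling -0.96 and after quantile normalization -0.93, all with an adjusted p of at most 0.0018. With 1 FPKM added in place of 0.1 it was -0.70. An antisense gene that overlaps its exons, *Gm11670*, was not listed in any library.

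*Znrf3* and *Nkd1* are the other feedback inhibitors among the members. *Znrf3*, a transmembrane ubiquitin ligase that removes Frizzled receptors from the cell surface, was at 4.15, 3.86 and 4.10 FPKM across Tyr-L libraries 1 to 3, compared with 2.50, 2.74 and 2.23 FPKM across Tyr-H libraries 1 to 3. The groups were separate. Its log2 fold change was -0.68 ± 0.10 (± SE, adjusted p = 0.00036), which did not reach the fold-change threshold. It lies on the minus strand of chromosome 11 from 5276324 to 5444847, and no annotated gene overlaps it. *Nkd1*, which encodes a cytoplasmic inhibitor that binds Dishevelled, was by contrast close to absent. It was listed at 0.0258 and 0.0236 FPKM in Tyr-L libraries 1 and 2 and in none of the other libraries. The value that 3 fragments would give it, called its floor, was estimated at 0.0336 to 0.0389 FPKM, so no difference was detectable at this depth. Of the 3 feedback genes, *Axin2* and *Znrf3* were thus measurable and lower in Tyr-H cells, while *Nkd1* did not exceed its floor in either group.

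The promoters of *Axin2* and *Tcf7l1*, the members called lower, are shown beside that of *Nkd1*, the feedback gene that was hardly detected. Each runs from 250 bases before to 50 bases after the start of the gene in RefSeq (GRCm38.p6). Both strands were searched for CTTTGAT, a core form of the TCF motif, and for GGGCGG, the GC box, which was added after the values were seen. Capitals mark GC boxes, and CTTTGAT was not in any of them. The regions are chr11:108920099-108920398 on the plus strand, chr6:72788996-72789295 on the minus strand and chr8:88527383-88527682 on the plus strand, in that order. The RefSeq start of *Nkd1* lies inside the gene as GENCODE annotates it (chromosome 8, 88521354 to 88594884).
Axin2: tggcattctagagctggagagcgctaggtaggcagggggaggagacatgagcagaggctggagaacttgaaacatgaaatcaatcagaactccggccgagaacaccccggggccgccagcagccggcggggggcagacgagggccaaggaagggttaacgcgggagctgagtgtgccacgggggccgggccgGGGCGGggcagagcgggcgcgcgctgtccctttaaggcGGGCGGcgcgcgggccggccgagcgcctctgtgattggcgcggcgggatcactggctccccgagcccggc
Tcf7l1: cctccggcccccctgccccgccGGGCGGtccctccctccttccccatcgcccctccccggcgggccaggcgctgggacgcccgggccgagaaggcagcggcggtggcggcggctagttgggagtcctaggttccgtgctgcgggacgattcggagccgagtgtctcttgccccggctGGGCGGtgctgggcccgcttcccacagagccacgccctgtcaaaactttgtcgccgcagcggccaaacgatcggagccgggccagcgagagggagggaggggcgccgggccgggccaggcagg
Nkd1: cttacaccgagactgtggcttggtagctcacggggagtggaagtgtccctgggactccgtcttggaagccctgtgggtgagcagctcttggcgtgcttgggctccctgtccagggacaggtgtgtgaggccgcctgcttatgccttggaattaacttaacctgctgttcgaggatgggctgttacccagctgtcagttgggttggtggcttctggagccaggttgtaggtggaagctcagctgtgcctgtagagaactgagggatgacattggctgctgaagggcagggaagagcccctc

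The *Axin2* and *Tcf7l1* windows had a GC content of 70.0% and 75.3%, with 31 and 34 CpG dinucleotides and 2 GC boxes each. The *Nkd1* window had a GC content of 58.3%, 6 CpG dinucleotides and 0 GC boxes. Over all 32851 promoters of the table, the median was 52.7% GC and 7 CpG, 35.7% held a GC box and 3.73% held CTTTGAT. Windows were taken for 7 of the 10 members, *Axin2*, *Ctnnb1*, *Dkk1*, *Nkd1*, *Tcf7*, *Tcf7l1* and *Tcf7l2*. Any window on chromosome 18, where *Apc* lies, was left out for the members but kept among the 32851. *Apc* was therefore not searched. Of their 10 windows 7 held a GC box and 0 held CTTTGAT, which describes these windows only. *Ctnnb1*, *Tcf7* and *Tcf7l2* had more than a single window each, and those of *Ctnnb1* share bases, so the windows are not independent.

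*Wnt5a* (chromosome 14, 28504750 to 28527448, plus strand), a ligand best known for beta-catenin-independent signalling and for its association with invasive melanoma, was not listed in any of the 6 libraries. Its floor, for a transcript of 7010 nt, was 0.0196 to 0.0226 FPKM. *Dkk1* (chromosome 19, 30545863 to 30549665, minus strand), a secreted inhibitor that binds LRP receptors, was listed in Tyr-L library 3 alone, at 0.0213 FPKM, under its floor of 0.0565 to 0.0654 FPKM. Neither gene was detected above its floor in these cells, and neither could be compared between the groups.

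The TCF genes encode the DNA-binding partners of beta-catenin. TCF7L1 acts mainly as a repressor, whereas TCF7 and TCF7L2 can activate or repress according to isoform and cofactor. *Tcf7l1* was the most abundant of them, at 10.5, 10.1 and 9.18 FPKM across Tyr-L libraries 1 to 3, compared with 4.96, 4.37 and 4.09 FPKM across Tyr-H libraries 1 to 3. Its groups were separate, and it was called lower in Tyr-H cells at a log2 fold change of -1.13 ± 0.09 (± SE, 95% interval -1.33 to -0.94, adjusted p = 7e-06). Median ratio scaling gave -0.98 and quantile normalization -0.97, just short of the threshold, with adjusted p of 1.6e-05 and 2.3e-05. With 1 FPKM added it was -1.00, marginally under the threshold in size. The gene lies on the minus strand of chromosome 6 from 72626378 to 72789254, and an antisense gene that overlaps its exons, *Gm15401*, had means of 0.0645 and 0.144 FPKM in Tyr-L and Tyr-H cells.

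*Tcf7* (chromosome 11, 52252371 to 52283014, minus strand) was at 3.15, 3.04 and 2.60 FPKM across Tyr-L libraries 1 to 3, compared with 2.13, 1.47 and 1.86 FPKM across Tyr-H libraries 1 to 3. The groups did not overlap, and the log2 fold change was -0.67 ± 0.15 (± SE, adjusted p = 0.0037). In the deposited tables the locus of *Tcf7* is shared with 11 other listed genes, that of *Tcf7l1* with 5 and those of *Ctnnb1* and *Apc* with 1 each. The deposited loci of *Ctnnb1*, *Apc*, *Tcf7* and *Tcf7l2* also differ from the annotated gene ends given here. *Tcf7l2* (chromosome 19, 55741820 to 55933654, plus strand) was at 3.92, 4.31 and 4.11 FPKM across Tyr-L libraries 1 to 3, compared with 4.05, 2.64 and 2.20 FPKM across Tyr-H libraries 1 to 3. It was the only tested member with overlapping groups: Tyr-H library 1 was as high as the Tyr-L libraries and the other two Tyr-H libraries were below them. Its log2 fold change was -0.50 ± 0.19 (± SE, 95% interval -0.93 to -0.08, adjusted p = 0.043; exact permutation test, two-sided, p = 0.2). The adjusted p exceeded 0.05 in 11 of 17 alternative fits, with a range from 0.00077 to 0.17, and the lowest was obtained without Tyr-H replicate 1, where the log2 fold change was -0.74. Without Tyr-H replicate 3 it was -0.32 (adjusted p = 0.14). Tyr-H library 1 also had the highest value of its group in 5 of the 7 tested members.

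**Figure D2:**
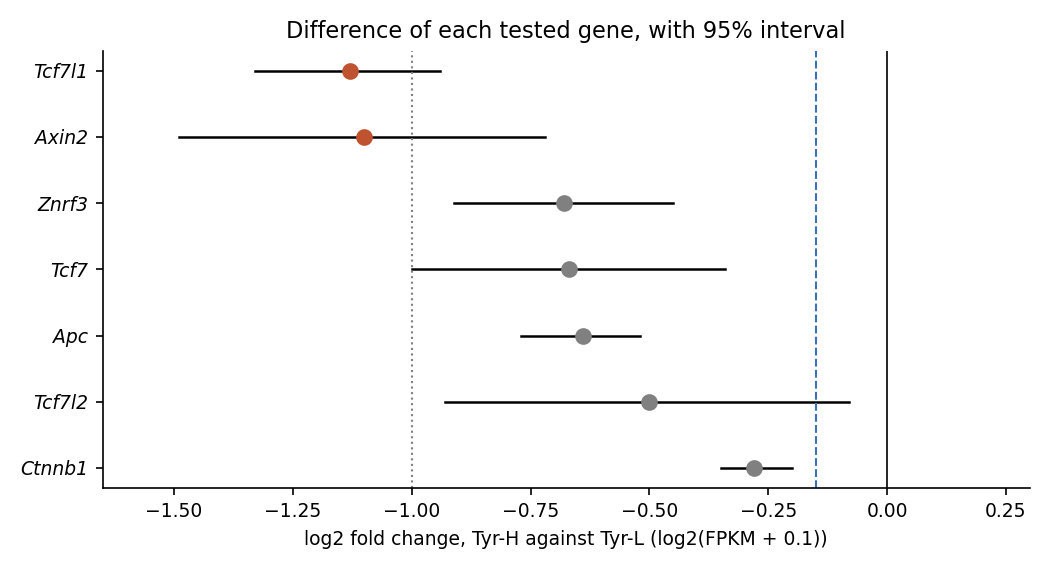
Log2 fold change, Tyr-H relative to Tyr-L, for the 7 tested members, from limma on log2(FPKM + 0.1), with 95% intervals as bars. Orange points are the members called lower (*Tcf7l1* at -1.13 and *Axin2* at -1.10), the dotted line is the threshold of -1 and the dashed line the median of all tested genes (-0.15), which the interval of *Tcf7l2* includes.

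The sum of the 3 TCF genes was 17.6, 17.5 and 15.9 FPKM across Tyr-L libraries 1 to 3 and 11.1, 8.49 and 8.15 FPKM across Tyr-H libraries 1 to 3. The groups were separate (two-sided exact permutation test, p = 0.1). Within that sum the share of *Tcf7l1* was 58.5% ± 1.10 in Tyr-L and 48.7% ± 3.70 in Tyr-H cells (SD of 3 libraries). This share was lower in each Tyr-H library than in any Tyr-L library (p = 0.1, two-sided exact permutation), a within-library ratio that does not depend on library-wide scaling. The share of *Tcf7l2* was 24.3% ± 1.81 in Tyr-L and 31.5% ± 4.68 in Tyr-H cells (SD of 3 libraries; p = 0.1 by the same exact permutation test), again without overlap. That of *Tcf7* was 17.2% ± 0.803 and 19.8% ± 2.81, with overlapping groups (SD of 3 libraries; p = 0.3 by the same exact permutation test). The TCF sum was therefore smaller in Tyr-H cells, and *Tcf7l1* made up less of it.

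**Figure D3:**
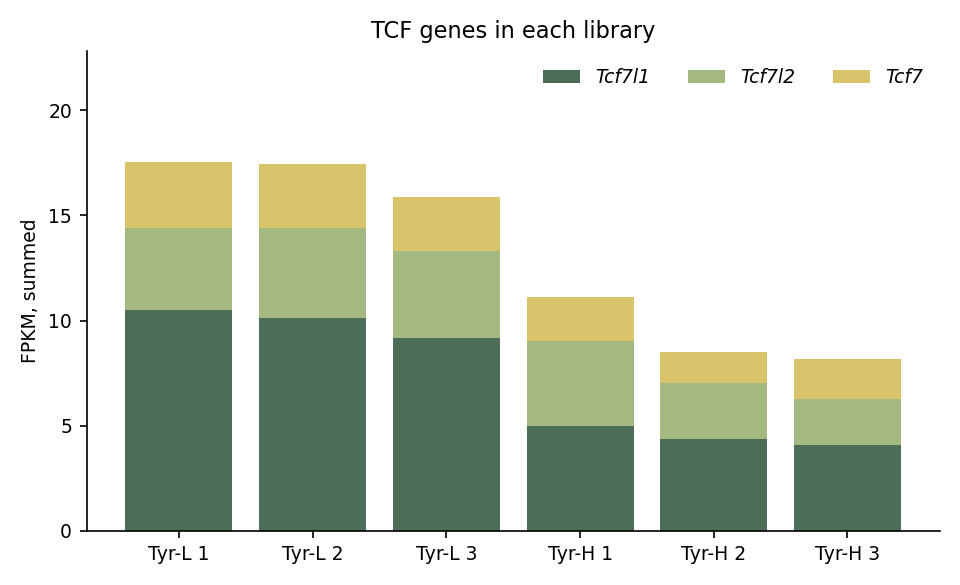
Stacked FPKM of *Tcf7l1*, *Tcf7l2* and *Tcf7* in each of the 6 libraries, on an axis that starts at 0. The bars reach 15.9 to 17.6 FPKM in the Tyr-L libraries and 8.15 to 11.1 FPKM in the Tyr-H libraries, and the *Tcf7l1* segment shrinks most.

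Ordered by mean FPKM, which is per transcript length, the members ran from *Ctnnb1* (678 FPKM in Tyr-L cells, 560 FPKM in Tyr-H cells) through *Apc* (18.8 and 12.0), *Tcf7l1* (9.93 and 4.47), *Tcf7l2* (4.11 and 2.97), *Znrf3* (4.04 and 2.49) and *Tcf7* (2.93 and 1.82) to *Axin2* (2.23 and 0.990). The order was the same in both groups. *Tcf7l2* and *Znrf3*, neighbours in it, had overlapping values in both groups and did not differ beyond their spread.

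The members were set beside a list of 95 other genes of the pathway. Of these, 73 were listed in at least 1 library and 57 could be tested. Of the 57 genes, 1 was called higher in Tyr-H cells (*Wnt9a*) and 3 lower (*Dkk3*, *Lgr5* and *Amer1*), shares near or below the 2.96% and 5.78% of all tested genes. On the adjusted p alone 28 (49.1%) were lower and 7 (12.3%) were higher, against the 39.9% and 17.9% of all tested genes given above, and their median log2 fold change was -0.20 against -0.15. The 7 include *Porcn*, which reached the minimum mean only through its Tyr-H values, and 6 were higher without it. Leaving out 1 library gave 27 to 28 lower and 2 to 5 higher, with 2 higher without Tyr-L replicate 1 or Tyr-H replicate 2, 3 without Tyr-H replicate 1 and 4 without Tyr-L replicate 3. After median ratio scaling, which moved the median of all tested genes from -0.15 to -0.01, 20 of the 57 were lower and 16 higher, and 6 of the 7 members were lower on the adjusted p. Under that scaling 27.0% of all tested genes were lower and 27.8% higher.

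At the top of the pathway, Wnt ligands were scarce. Of the 19 Wnt genes including *Wnt5a*, 10 were not listed in any library, and the highest value of any of them was 0.655 FPKM. That value belonged to *Wnt5b*, which averaged 0.583 ± 0.0678 FPKM over the Tyr-L libraries and 0.593 ± 0.0569 FPKM over the Tyr-H libraries (± SD of 3 libraries; log2 fold change 0.02, adjusted p = 0.93). *Wnt9a* was at 0.123, 0.136 and 0.185 FPKM across Tyr-L libraries 1 to 3, compared with 0.450, 0.450 and 0.520 FPKM across Tyr-H libraries 1 to 3. The groups were separate at these low levels, and the log2 fold change was 1.21 ± 0.24 (± SE, adjusted p = 0.002), which with 1 FPKM added fell to 0.36. *Wls*, the carrier that brings Wnt proteins to the cell surface, averaged 81.7 ± 0.646 FPKM over the Tyr-L libraries and 75.1 ± 0.677 FPKM over the Tyr-H libraries (± SD of 3 libraries; log2 fold change -0.12, adjusted p = 0.0063), and relative to the median of all tested genes its log2 fold change was 0.03. *Porcn*, which encodes the acyltransferase that lipidates Wnt proteins and is the other gene of the secretion step (named after its values were seen), was listed at 0.0389 and 0.0704 FPKM in Tyr-L libraries 1 and 2, not in Tyr-L library 3, and at 0.163, 0.187 and 0.150 FPKM across Tyr-H libraries 1 to 3. Its floor was 0.0523 to 0.0605 FPKM. Although *Porcn* entered the fit, as stated with the counts above, no fold change is read from it.

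Among 15 receptors, 5 of 11 tested were lower (45.5%, against 39.9% of all tested genes) and 1 was higher (9.09%, against 17.9%) on the adjusted p. The most abundant, *Ryk*, a Wnt receptor of the tyrosine kinase family, averaged 45.0 ± 1.98 FPKM over the Tyr-L libraries and 38.7 ± 1.54 FPKM over the Tyr-H libraries (± SD of 3 libraries; log2 fold change -0.22, adjusted p = 0.0027), which was -0.06 relative to the median of all tested genes. *Fzd7*, named after its values were seen, is a Frizzled receptor and was the receptor with the largest decrease. It averaged 22.3 ± 1.15 FPKM over the Tyr-L libraries and 11.5 ± 0.783 FPKM over the Tyr-H libraries (± SD of 3 libraries; log2 fold change -0.95, adjusted p = 2.9e-06). It made up 47.4% to 49.2% of the summed FPKM of the 10 Frizzled genes in Tyr-L libraries and 32.0% to 33.8% in Tyr-H libraries, with no overlap. The other Frizzled genes summed to 23.5 to 24.5 FPKM over the Tyr-L libraries and 21.8 to 25.2 FPKM over the Tyr-H libraries, which overlapped.

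In the R-spondin module, whose LGR receptors protect Frizzled proteins from ZNRF3, the LGR genes did not share a direction. *Lgr4*, the most abundant, averaged 8.72 ± 0.0949 FPKM over the Tyr-L libraries and 6.07 ± 0.263 FPKM over the Tyr-H libraries (± SD of 3 libraries; log2 fold change -0.52, adjusted p = 9e-05). *Lgr5*, a target of the pathway and a stem cell marker in the intestine, was at 0.508, 0.499 and 0.668 FPKM across Tyr-L libraries 1 to 3, compared with 0.0891, 0.146 and 0.255 FPKM across Tyr-H libraries 1 to 3 (log2 fold change -1.36, SE 0.29, adjusted p = 0.003). With 1 FPKM added its log2 fold change was -0.42. *Lgr6*, also named after its values were seen, was higher in every Tyr-H library than in any Tyr-L library. It averaged 0.730 ± 0.129 FPKM over the Tyr-L libraries and 1.49 ± 0.190 FPKM over the Tyr-H libraries (± SD of 3 libraries; log2 fold change 0.94, adjusted p = 0.0014).

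Of 13 extracellular inhibitors 8 were not listed in any library. The most abundant over the 6 libraries together was *Dkk3*, a divergent relative of *Dkk1*, at 11.5, 10.8 and 12.1 FPKM across Tyr-L libraries 1 to 3, compared with 2.84, 2.97 and 2.88 FPKM across Tyr-H libraries 1 to 3. In Tyr-H cells it was below *Kremen1*, named after its values were seen, which encodes a receptor for DKK proteins and averaged 4.54 FPKM over the Tyr-L libraries and 4.16 FPKM over the Tyr-H libraries. The log2 fold change of *Dkk3* was -1.95 ± 0.07 (± SE, adjusted p = 1.7e-07), the largest in size of the 64 tested members and pathway genes, and it was called in each of the alternative fits. Of 13 tested cytoplasmic transducers 7 were lower on the adjusted p (53.8%, against 39.9% of all tested genes) and 1 was higher (7.69%, against 17.9%). *Amer1*, an X-linked scaffold of the destruction complex that binds APC, was the only one called, at 1.51, 1.58 and 1.76 FPKM across Tyr-L libraries 1 to 3, compared with 0.775, 0.710 and 0.758 FPKM across Tyr-H libraries 1 to 3 (log2 fold change -1.02, SE 0.14, adjusted p = 0.00024). It fell short of the threshold after median ratio scaling (-0.88), after quantile normalization (-0.84), with 1 FPKM added (-0.58), after the correction for GC content and length (-0.69) and without Tyr-L replicate 3 (-0.96) or Tyr-H replicate 2 (-0.98). *Csnk1a1*, the kinase that primes beta-catenin for destruction, had overlapping groups and averaged 122 ± 1.85 FPKM over the Tyr-L libraries and 127 ± 4.89 FPKM over the Tyr-H libraries (± SD of 3 libraries; log2 fold change 0.05, adjusted p = 0.24).

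In the nucleus, 8 of 15 tested cofactors were lower (53.3%, against 39.9% of all tested genes) and 0 higher (against 17.9%) on the adjusted p. The most abundant, *Aes*, a short member of the Groucho family of corepressors, averaged 112 ± 2.28 FPKM over the Tyr-L libraries and 107 ± 0.863 FPKM over the Tyr-H libraries (± SD of 3 libraries; log2 fold change -0.07, adjusted p = 0.07), or 0.08 relative to the median of all tested genes. Of 6 tested genes reported as pathway targets in other tissues, 4 were lower (66.7%, against 39.9% of all tested genes) and 1 was higher (16.7%, against 17.9%) on the adjusted p. *Cd44*, an adhesion receptor for hyaluronan, was at 131, 126 and 126 FPKM across Tyr-L libraries 1 to 3, compared with 85.9, 83.6 and 82.1 FPKM across Tyr-H libraries 1 to 3 (log2 fold change -0.61, SE 0.03, adjusted p = 1.2e-06). *Ccnd1*, which encodes cyclin D1, was the gene that was higher, with overlapping groups. It averaged 99.4 ± 3.36 FPKM over the Tyr-L libraries and 109 ± 6.77 FPKM over the Tyr-H libraries (± SD of 3 libraries; log2 fold change 0.13, adjusted p = 0.048). It too was named after its values were seen. Of the 6 tested targets, 5 had a negative log2 fold change, as *Axin2* did. Only *Ccnd1* went the other way, by a small difference (exact permutation test, two-sided, p = 0.2).

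**Figure D4:**
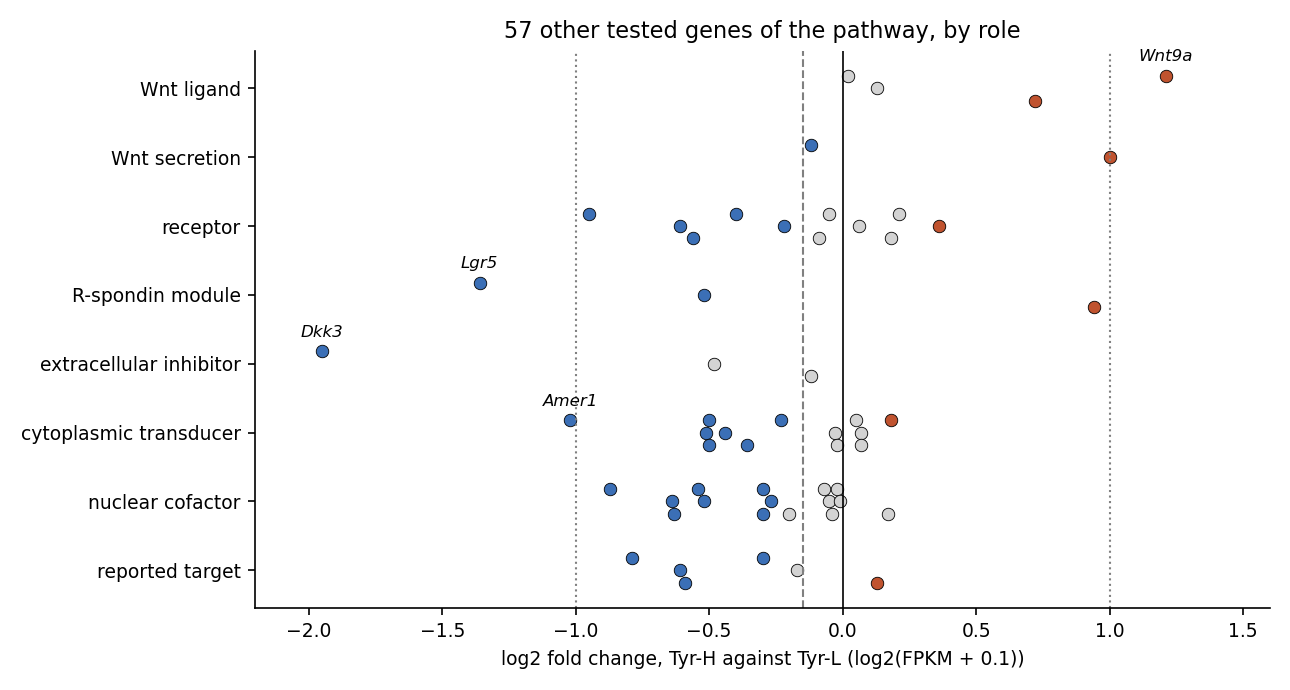
Log2 fold change, Tyr-H relative to Tyr-L (limma, log2(FPKM + 0.1)) for the 57 other tested genes of the pathway, *Porcn* included, 1 point a gene, by role. Blue points were lower and orange points higher in Tyr-H cells on the adjusted p, grey points passed in neither direction, dotted lines are the fold-change thresholds and the dashed line is the median of all tested genes (-0.15); named genes were called.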

How the data were processed

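RNA-seq libraries (mRNA kit, paired-end reads) of 3 Tyr-L and 3 Tyr-H samples were analysed. The authors deposited FPKM values in 1 table per library, already scaled to transcript length and mapped fragments. The submitters' processing notes name Trimmomatic, HISAT2, HISAT and GRCm38.p6. The quantifier and annotation are not given in the sources used here. Unlisted genes were taken as 0. Coordinates and transcript lengths came from GENCODE M21 (GRCm38), which holds 20709 of the 20788 identifiers.

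limma 3.58.1 in R 4.3.3 (lmFit, eBayes with a variance trend, Benjamini-Hochberg over the 14336 genes whose mean reached 0.1 FPKM) was run on log2(FPKM + 0.1), a scale that understates changes of low genes. Single values had exact permutation tests, two-sided. The procedure was run on simulated data in which few genes changed, each by more than the fold-change threshold. This does not cover calls near the threshold or differences in scale between libraries. The members and lists were chosen with earlier results of these data known. Named genes were the members, called pathway genes, the most abundant gene of each role, *Tyr*, overlapping genes and markers, and others are stated. Where a symbol had more than 1 identifier (*Bcl9l*), the more abundant was used. The estimated depth used genes with a single transcript of at least 1500 nt, and floors cover counting error only. The remaining gene of the TCF/LEF family was not part of the list, and protein sequences were not compared. Replicate numbers are shared between groups but did not pair the libraries. Alternatives are given in the closing section. Python 3.11.15 was used for other steps.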

Additional observations from a re-analysis of the deposited data

How the results depend on the processing

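All 7 tested members had a negative log2 fold change in each of 17 alternative fits, but the adjusted p of *Tcf7l2* exceeded 0.05 in 11 of them. No TCF share difference changed sign in the smaller set of alternatives run for the shares. The main calls were 2 members lower, 1 other pathway gene higher and 3 lower. With 1 FPKM added in place of 0.1, 0 members were lower, and 0 pathway genes were higher and 1 lower (*Axin2* -0.70, *Tcf7l1* -1.00, both still past the adjusted p). Median ratio scaling gave 0 members and 3 higher pathway genes (*Axin2* -0.96, *Tcf7l1* -0.98), and quantile normalization 0 and 3 (*Axin2* -0.93, *Tcf7l1* -0.97), with median log2 fold changes of all genes of -0.01 and -0.02. Higher pathway genes numbered 2 with 0.01 FPKM added, 0 among genes averaging 1 FPKM or more and 2 after rescaling to a total of 1000000 FPKM. A correction for GC content and length, chosen after seeing the data, gave 3, and 2 with the replicate block. Without a fold-change threshold 7 members passed, *Znrf3* (-0.68), *Apc* (-0.64), *Ctnnb1* (-0.28), *Tcf7* (-0.67) and *Tcf7l2* (-0.50) in addition, as did 7 higher (6 without *Porcn*) and 28 lower pathway genes. Leaving out each library gave 1 to 2 members lower (1 without Tyr-H replicate 2), 1 to 2 pathway genes higher (2 without Tyr-L replicate 2, Tyr-L replicate 3 or Tyr-H replicate 1) and 2 to 3 lower, with *Axin2* at -1.24 to -0.97. The 425 higher and 829 lower called genes of the reported analysis were 33.9% higher, against 47.8% after median ratio scaling, 54.1% after quantile normalization, 25.5% after rescaling and 52.0% after the GC and length correction. With 1 FPKM added the counts were 185 higher and 203 lower.

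Libraries with the same replicate number did not deviate together (correlations 0.02, 0.01 and -0.08), so the numbers do not pair them. A fit with the replicate block gave 430 higher and 828 lower genes, with 2 members lower (*Axin2* -1.10, *Tcf7l1* -1.13), and changed no call of a member. Estimated depth sets the floors of *Nkd1*, *Dkk1* and *Wnt5a*, below which no difference was detectable.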

Other observations

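The tested genes that start within 5 Mb of a member gave a view of its chromosomal surroundings. Their median log2 fold change was -0.26 around *Ctnnb1* (78 genes) and -0.25 around *Apc* (110 genes), both below the -0.15 of all tested genes. The members' own values were -0.28 for *Ctnnb1*, close to its neighbours, and -0.64 for *Apc*. Around *Tcf7l1* the median was -0.13 (45 genes), and around *Axin2* it was -0.08 (60 genes), beside own values of -1.13 and -1.10. It was -0.01 around *Znrf3* (77 genes, own value -0.68), -0.07 around *Tcf7* (83 genes, -0.67) and -0.03 around *Tcf7l2* (31 genes, -0.50). Whether the surroundings have a part in any of these differences was not tested.

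Among the tested Wnt genes, *Wnt10a*, named after its values were seen, averaged 0.192 ± 0.0432 FPKM over the Tyr-L libraries and 0.384 ± 0.115 FPKM over the Tyr-H libraries (± SD of 3 libraries; limma log2 fold change 0.72, adjusted p = 0.048). It was not called, its adjusted p lay close to the threshold at a low level, and its values in the alternative fits are not given here.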
